A study of Mus musculus with 27 samples.

Results

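Short isolated CpG runs are small groups of measured cytosines that lie apart from other such groups on the autosomes. The isolation is one of measured positions only, and CpGs without a level in every library can lie close to a run. Measured positions with a level in all 27 libraries were joined into a run wherever neighbours lay at most 100 bp apart, and a run was kept if it held 5 to 10 positions and no other run lay within 2000 bp on either side. This gave 1070 runs with 7585 positions, of 22922 autosomal runs and 23602 runs in all. The rule used position and the presence of a value in every library, not the level of methylation. Of the 1070 runs, 259 do not meet it once every listed position counts. A median run held 7 positions on 5 CpGs and spanned 118 bp (quartiles 83 and 156, range 10 to 340), and its nearest neighbour run lay at a median distance of 31812 bp. The libraries came from C2C12, a mouse myoblast line that was differentiated in 2% horse serum and then exposed to 50% horse serum for 2 h, a serum shock, which is used to align the daily clocks of cells in culture. DNA was collected at 9 time points 6 h apart, the first 12 h and the last 60 h after the shock, with 3 libraries each, and was profiled by reduced representation bisulfite sequencing (RRBS), which cuts DNA with a restriction enzyme and reads methylation in the short fragments. All groups carry the same differentiation and shock and differ in time alone; unshocked cells were not analysed here. The labels do not say whether the libraries of a time point came from separate cultures, so the p-values are set against a spread between libraries that may be technical only.

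In mammals, methyl groups are placed on cytosines that stand before a guanine. Dense groups of such CpGs, the CpG islands, lie at many gene starts and are usually kept free of methylation, whereas scattered CpGs in gene bodies and between genes are mostly methylated. RRBS fragments are rich in islands. A level here is the percentage of methylation at a position, averaged over the positions of a run, and a difference between levels is given in percentage points.

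The following stretches show runs of high, low, intermediate and variable level. The sequences below are the parts of runs that lie upstream of an annotated gene start and outside every annotated gene, from RefSeq (GRCm38.p6, the assembly that mm10 names), written 5′ to 3′ on the strand of the gene with each CpG in capitals. They were chosen for their level among the 39 runs at a promoter window that had such a stretch. Of the runs shown, 4 were among the highest of those 39, 3 among the lowest, 2 near 50%, and 1 varied widely between libraries. Over all 1070 runs the upper quartile was 65.2% and the highest level 98.5%.

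The stretches chosen as high lie before Lrrc2 (chr9:110951311-110951441, plus strand), Slc17a8, a vesicular glutamate transporter (chr10:89621307-89621423, minus strand), the olfactory receptor gene Olfr750 (chr14:51071493-51071670, minus strand), and Pnliprp2, a pancreatic lipase-related gene (chr19:58759564-58759676, plus strand).
Lrrc2: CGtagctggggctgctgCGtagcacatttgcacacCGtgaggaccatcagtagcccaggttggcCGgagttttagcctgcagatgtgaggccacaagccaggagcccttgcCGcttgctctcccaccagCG
Slc17a8: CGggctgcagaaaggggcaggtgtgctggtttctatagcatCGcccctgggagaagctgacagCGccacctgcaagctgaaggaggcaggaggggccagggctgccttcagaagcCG
Olfr750: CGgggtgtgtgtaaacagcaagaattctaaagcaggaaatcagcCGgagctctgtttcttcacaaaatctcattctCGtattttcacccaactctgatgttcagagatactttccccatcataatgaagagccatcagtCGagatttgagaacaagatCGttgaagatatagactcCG
Pnliprp2: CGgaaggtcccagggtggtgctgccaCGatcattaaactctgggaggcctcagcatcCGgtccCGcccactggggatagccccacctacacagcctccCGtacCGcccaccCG

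The stretches with little methylation lie before the histone H4 gene H4c3 (chr13:23698476-23698544, minus strand), Pan2, which codes for a subunit of an mRNA deadenylase (chr10:128303085-128303191, plus strand, part of its run), and the zinc finger gene Zfp54 (chr17:21423029-21423204, plus strand).
H4c3: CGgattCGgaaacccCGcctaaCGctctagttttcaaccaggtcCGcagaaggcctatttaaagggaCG
Pan2: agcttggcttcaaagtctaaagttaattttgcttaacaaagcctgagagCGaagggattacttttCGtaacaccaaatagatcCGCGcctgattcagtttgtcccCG
Zfp54: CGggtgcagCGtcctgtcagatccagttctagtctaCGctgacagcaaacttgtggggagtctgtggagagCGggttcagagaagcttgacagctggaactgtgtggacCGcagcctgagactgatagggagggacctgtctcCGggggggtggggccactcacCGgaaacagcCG

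Near 50% were the stretches before Mfsd4b5, of the major facilitator transporter family (chr10:39986749-39986886, minus strand), and the keratin gene Krt23 (chr11:99493191-99493327, minus strand). Of the stretches shown, the one before the melanocortin receptor gene Mc3r (chr2:172248287-172248370, plus strand) varied most between libraries.
Mfsd4b5: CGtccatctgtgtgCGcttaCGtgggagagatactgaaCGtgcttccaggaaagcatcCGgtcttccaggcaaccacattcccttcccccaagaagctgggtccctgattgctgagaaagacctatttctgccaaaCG
Krt23: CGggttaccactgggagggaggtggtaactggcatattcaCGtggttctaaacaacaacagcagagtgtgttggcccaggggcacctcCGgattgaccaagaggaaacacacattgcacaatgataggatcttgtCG
Mc3r: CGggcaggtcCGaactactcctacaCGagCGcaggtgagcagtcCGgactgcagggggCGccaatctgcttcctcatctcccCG

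The run before Lrrc2 had a level of 82.5% ± 6.90 (SD, n = 27), with a lowest library of 69.7%, a median of 83.0% and a highest of 93.1%. The run before Slc17a8 had 78.0% ± 5.61 (SD, n = 27; 67.3% to 90.3%), and that before Olfr750 66.5% ± 5.15 (SD, n = 27; 59.4% to 77.5%). Pnliprp2 had 63.9% ± 13.9 (SD, n = 27), with libraries from 34.6% to 87.4%. H4c3 stood at 1.85% ± 4.23 (SD, n = 27), with a median library at 0 and a highest library of 20.8%. Pan2 had 2.11% ± 1.66 and Zfp54 2.34% ± 1.903 (SD, n = 27 each), and no library of either passed 8.07%. Every library of the 4 high runs lay above every library of H4c3, Pan2 and Zfp54, which were chosen for that difference in level. Per 100 bases, the high stretches held 4.58 CpGs at Lrrc2, 3.42 at Slc17a8, 3.37 at Olfr750 and 6.19 at Pnliprp2, and a further one, at Bglap3 with a level of 73.4%, held 4.31. The low stretches held 8.70 at H4c3, 4.67 at Pan2 and 4.55 at Zfp54, and a further one, at Fdxr with a level of 2.24%, held 7.5. At Pan2, Bglap3 and Fdxr the stretch is only part of its run, 40 bases at Fdxr, whereas the level is that of the whole run. The densities overlap, since the stretch before Pnliprp2 was denser than those before Pan2 and Zfp54. Mfsd4b5 had a level of 49.2% ± 6.21 and Krt23 of 54.2% ± 6.39 (SD, n = 27 each). Mc3r averaged 16.6% ± 21.7 (SD, n = 27), with a lowest library at 0, a median of 14.2% and a highest at 100%.

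Across the whole set the levels spread over nearly the full scale. The median run had a level of 34.8% (quartiles 9.74% and 65.2%, range 0.383% to 98.5%). Of the 1070 runs, 271 (25.3%) lay under 10%, 400 (37.4%) between 10% and 50%, 327 (30.6%) between 50% and 90%, and 72 (6.73%) at 90% or more. In the 4643 isolated runs of more than 10 positions the median was 3.18%, and 74.2% of them lay under 10%. In the 4937 runs of the same size that had a neighbour within 2000 bp, the median was 19.3% and 36.9% lay under 10%. Among all 21852 other autosomal runs the median was 5.16%. The share at 90% or more was 6.73% for short isolated runs, 6.22% for short runs with a neighbour and 0.862% for long isolated runs. These differences are descriptions over runs of the same 27 libraries and were not tested.

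**Figure D1:**
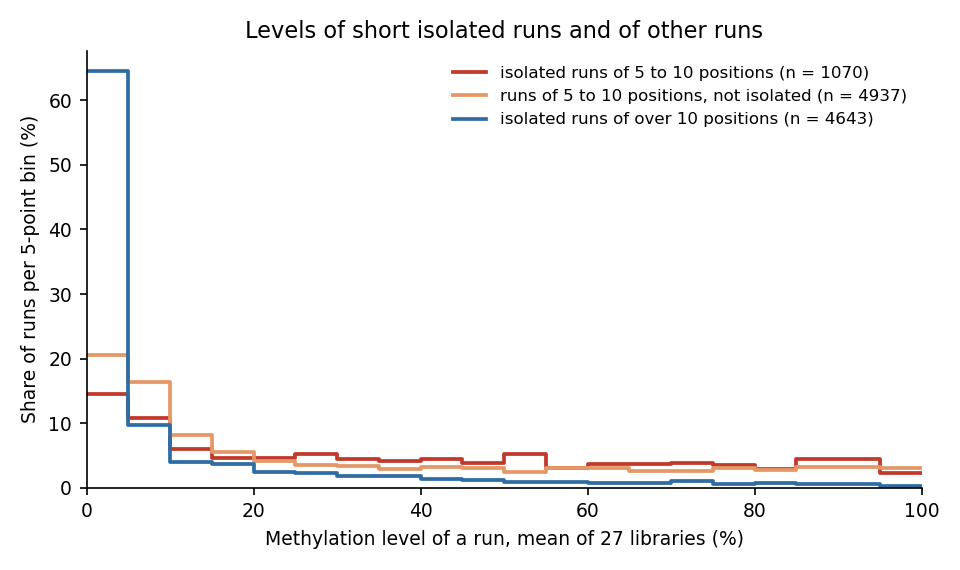
Distribution of methylation levels (x axis, percent, mean of 27 libraries, in bins of 5 points) as the share of runs per bin (y axis, percent) for 1070 short isolated runs, 4937 short runs with a neighbour within 2000 bp and 4643 isolated runs of more than 10 positions. The long isolated runs pile up in the lowest bin, whereas the short isolated runs spread over the scale, with a median of 34.8% against 3.18%.

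Runs on either side of the limits of the rule had these levels, given as a description. Runs of 10 positions, just inside the upper limit, had a median level of 23.5% (n = 121), and isolated runs of 11 positions, just outside, had 32.2% (n = 106). Runs whose nearest neighbour lay at 2000 to under 2500 bp had a median of 45.1% (n = 44), and runs of the same size with a neighbour at 1500 to under 2000 bp had 67.3% (n = 172). Within the set, the median was 51.8% where the nearest run lay under 5000 bp away (n = 114), 35.1% at 5000 to under 20000 bp (n = 267), 35.3% at 20000 to under 100000 bp (n = 468) and 26.9% at 100000 bp or more (n = 221). By number of positions it was 39.7% at 5, 36.9% at 6, 40.2% at 7, 28.9% at 8, 33.4% at 9 and 23.5% at 10. Runs with under 15 bp per CpG had a median of 16.6% (n = 221), those with 15 to under 30 bp 37.2% (n = 653) and those with 30 bp or more 41.3% (n = 196).

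Most short isolated runs had a higher level than the run next to them. The nearest runs held a median of 20 positions and had a median level of 6.45%, and 600 of them (56.1%) lay under 10%. Among all other autosomal runs the median was 5.16% and 62.1% lay under 10%, so low levels were not particular to the nearest runs. How often other runs lay above their own nearest run was not computed. Of the 1070 members, 754 (70.5%) had a higher level than their nearest run, 427 were higher by 25 points or more, 116 were lower by 25 points or more, and 310 lay within 10 points. Beside a nearest run under 10%, 223 members had a level of 50% or more. Across runs, which are not independent replicates, the level of a member and that of its nearest run had a Pearson correlation of 0.0988 (n = 1070), and of 0.259 where they lay under 5000 bp apart (n = 114).

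Most runs lay inside genes. By the RefSeq gene table, 881 runs (82.3%) overlapped a gene, 828 of them a protein-coding gene and 41 a long noncoding RNA gene as the leading one. The other 189 lay between genes, 170 of these within 2000 bp of one, and the run farthest away lay 112969 bp from any gene. The table gives gene starts and ends only, so exons, introns and untranslated regions are not distinguished here. The median level was 33.4% inside genes and 42.2% between them. Of the 21852 other autosomal runs 89.7% were inside genes, of the 4643 long isolated runs 98.1%, and of the 4937 short runs with a neighbour 78.2%.

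Runs at promoter windows had lower levels than runs elsewhere. Windows from 250 bases before to 50 after annotated starts were available for 18 autosomes, on which 1045 of the runs lie, and 230 of these (22.0%) overlapped a window. The windows do not cover every gene boundary. The run at Tnni2 (chr7:142441666-142441840) spans the boundary of that gene with the lower coordinate, 142441816, yet it overlaps no window. Runs at no window may therefore include some at gene starts. These 230 runs had a median level of 12.2% (quartiles 3.72% and 39.2%), and 45.7% of them lay under 10%. The 674 runs inside a gene but at no such window had a median of 38.9%, and the 141 runs between genes and at no window had 49.3%, with 10.6% of them under 10%. At promoter windows, the long isolated runs had a median of 2.86% (n = 2898) and the short runs with a neighbour 7.33% (n = 642). Inside genes but at no window the same sets had 4.30% (n = 1566) and 20.2% (n = 3322).

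**Figure D2:**
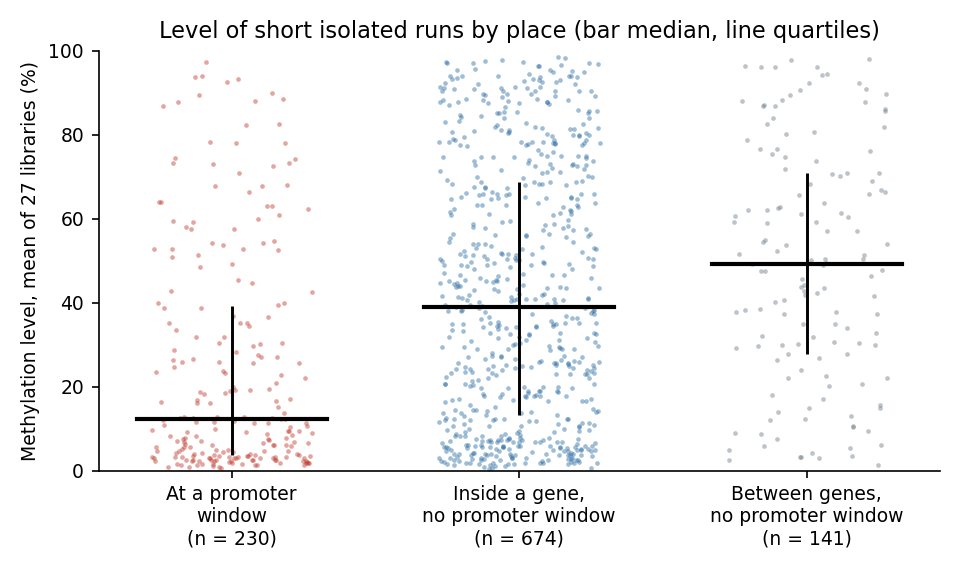
Methylation level (y axis, percent, mean of 27 libraries) of each short isolated run on the 18 autosomes with promoter windows, by place; each point is a run, the bar is the median and the vertical line joins the quartiles. Runs at a promoter window lie lowest (median 12.2%), runs inside a gene higher (38.9%) and runs between genes highest (49.3%).

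The promoter windows with low runs held more CpGs. A window of 300 bases with a member under 10% held a median of 12 CpGs (n = 105), one with a member at 10% to 50% held 9 (n = 76), and one with a member at 50% or more held 7 (n = 49), which is also the median of all 31628 autosomal windows. The median ratio of observed to expected CpGs was 0.593, 0.427 and 0.347 in the same order, while the median G+C content was 55%, 54% and 53%. Across the 230 windows the level and the number of CpGs had a Pearson correlation of −0.341 and a Spearman correlation of −0.451, as a description over windows that share the same libraries.

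4 short motifs were searched on both strands of the windows. They were the site CCGG that MspI, the usual enzyme of RRBS, cuts, the E-box of clock factors (CACGTG), an E-box that myogenic factors bind (CAGCTG) and the core of a GC box (GGGCGG). The site CCGG was present in 97.4% of the windows with a member and in 53.1% of all windows. With MspI, measured runs lie in fragments cut at this site, so this difference cannot be read as a trait of the runs. CACGTG was present in 6.96% of the windows with a member and 7.10% of all, CAGCTG in 19.6% and 16.2%, and GGGCGG in 35.7% of both. Among windows with a member, GGGCGG was found in 50.5% of those under 10% and 22.4% of those at 50% or more. Apart from CAGCTG, each of these motifs contains a CpG itself, so its share moves with the number of CpGs.

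Some runs lay in genes of large named families, whose levels are given without a test between families. The 31 runs in zinc finger genes named Zfp, a family of DNA-binding proteins, had a median level of 8.22%. The 7 in olfactory receptor genes had 51.1%, the 10 in keratin genes 20.8% and the 22 in solute carrier genes 39.2%. Of genes without a family name, the 47 runs in Gm models had 40.9% and the 33 in Rik genes 25.2%. A single run in a vomeronasal receptor gene had 41.5% and one in a protocadherin gene 63.5%. 4 genes held more than 1 run. The gene model Gm37013 on chromosome 18 held 6, with levels of 54.0%, 31.4%, 50.6%, 79.0%, 60.8% and 40.4%. In this count each run goes to its leading gene only, although 106 runs overlap 2 or more genes. Runs counted under a gene model may thus also lie in a gene of a named family. Neighbouring runs within a gene could differ widely: the pair in the melanocortin receptor gene Mc5r had 23.3% and 92.7%, that in Fcamr, which codes for an Fc receptor, 38.8% and 11.9%, and that in Tspear 12.3% and 26.97%.

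The highest and lowest runs lay near the ends of the scale, which bound their spread. The highest level was at Rnf151, a RING finger gene (chr17:24716394-24716471), with 98.5% ± 2.81 (SD, n = 27) and no library under 89.03%. Rrad, which codes for a small GTPase of muscle and heart, followed with 98.3% ± 3.26 (SD, n = 27), and a run 451 bp from Adgrl4, an adhesion receptor gene of endothelial cells, with 98.1% ± 1.94 (SD, n = 27). The lowest levels were at Ccdc126 with 0.383% ± 0.790, at Gga2, a clathrin adaptor of the Golgi, with 0.612% ± 0.844, and at Tm9sf4 with 0.665% ± 1.19 (SD, n = 27 each). No library of these 3 low runs passed 4.20%. Close to 50% were a run 446 bp from Tmem72 with 50.1% ± 6.81 and S100a3, a calcium-binding protein, with 50.1% ± 5.79 (SD, n = 27 each). The libraries at the run near Tmem72 ranged from 40.2% to 66.1%, and those at S100a3 from 38.8% to 61.5%. Of the 271 runs with a mean under 10%, 57 were under 10% in every library, and of the 72 at 90% or more, 6 were so in every library. A further 409 runs were between 10% and 90% in every library.

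Positions of 1 run did not always share a level. The gap between the highest and the lowest position of a run, each averaged over 27 libraries, had a median of 11.4 points. It was under 5 points in 334 runs, 20 points or more in 381 (35.6%) and 40 points or more in 135. The widest gap lay 836 bp from Sap18b (chr8:95824362-95824520), where 5 positions ran from 6.71% to 95.6%. At Ccdc127 the positions ran from 9.79% to 96.8%, and at Ppp1r32 from 9.54% to 90.2%, so the run levels of 65.0% and 73.7% there are averages over unlike CpGs. Levels of near neighbours were not independent measurements. Positions 1 bp apart, as on the 2 strands of a CpG, differed by a mean of 0.144 points (1408 pairs), and their deviations in each library from the 27-library mean had a Pearson correlation of 1.00. At 41 to 60 bp the mean difference was 6.73 points and the correlation 0.718 (4172 pairs), and at 81 to 100 bp 15.02 points and 0.161 (1725 pairs). The sources used here do not say whether the deposited values were smoothed along the genome. A level, a gap within a run or a library at exactly 0 or 100% may therefore draw on adjacent positions, which was not tested.

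The 12 h replicate 3 library stood apart: its mean absolute deviation from the 27-library mean, over the 1070 runs, was 7.29 points, and that of the other libraries lay between 3.96 points (24 h, replicate 3) and 6.17 points (12 h, replicate 1). It was at exactly 0 in 117 runs, more than any other library, and was alone the lowest library in 101 runs and alone the highest in 75. The read depth of these levels is unknown, and its part in these values was not tested. The median level over the runs ranged from 32.0% to 37.1% between libraries, and the share under 10% from 22.7% to 27.9%. Pairs of libraries had Pearson correlations of 0.895 to 0.967 across the runs, with a mean of 0.938 both within a time point (27 pairs) and between time points (324 pairs). Across the other autosomal runs the mean was 0.958.

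The spread between libraries was as wide within time points as over all of them. The SD over 27 libraries had a median of 6.02 points (quartiles 4.08 and 8.33), and the pooled SD within time points 6.03 points. The SD of the 9 time means had a median of 3.24 points, and its median ratio to what the spread within time points gives for means of 3 libraries was 0.953 (0.965 in the other autosomal runs). The median SD was 3.69 points for runs under 10%, 7.32 for 10% to 50%, 6.87 for 50% to 90% and 3.78 for 90% or more. In the same classes the other autosomal runs had 1.91, 5.54, 6.12 and 3.39 points, the short runs with a neighbour 4.14, 7.94, 7.27 and 3.93, and the long isolated runs 1.496, 4.43, 4.57 and 2.72. Short runs of either kind thus lay above long runs in each class, and the isolated short runs lay slightly below those with a neighbour. Among members of 10% to 90%, the median SD was 8.24 points with 5 positions (n = 170) and 6.97 with 10 (n = 74). An SD of 10 points or more was reached by 169 runs (15.8%), against 6.10% of the other autosomal runs, of which 62.1% lay under 10%. At 10% to 50% the share was 24.5% of members and 31.5% of the short runs with a neighbour. At 50% to 90% it was 17.1% and 25.1% in the same order. Under 10% the counts were 11 of 271 and 73 of 1823. Only at 90% or more were members clearly higher, with 4 of 72 against 4 of 307. So wide a spread was thus not particular to isolated runs.

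**Figure D3:**
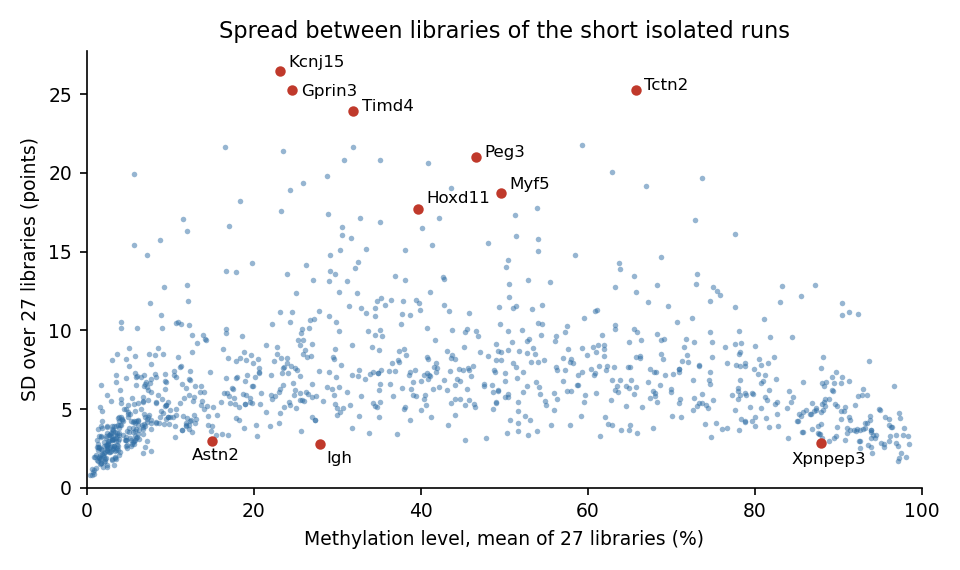
Standard deviation over 27 libraries (y axis, percentage points) against the mean level (x axis, percent) of each of the 1070 short isolated runs, with 10 runs named by their gene or nearest gene. The spread is low at both ends of the scale, and Kcnj15, Tctn2, Gprin3 and Timd4 reach 23.9 to 26.5 points.

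The widest spread was at Kcnj15, a potassium channel gene (chr16:95257645-95257734, 6 positions), with 23.1% ± 26.5 (SD, n = 27). Its lowest library was at 0, its median at 16.0% and its highest, 30 h replicate 3, at 100%, while the other 30 h libraries had 33.2% and 34.8%. Tctn2, a gene of the ciliary transition zone, had 65.8% ± 25.3 with libraries from 26.4% to 100%. Gprin3 had 24.6% ± 25.3 and a run 496 bp from Timd4, a receptor gene of macrophages, 31.9% ± 23.9 (SD, n = 27 each), and both ran from 0 to 100%. A library at exactly 0 occurred in 305 runs, one at exactly 100% in 107, and 47 runs had both a library at 0 and one at 50% or more. In 104 runs the libraries spanned 50 points or more. At the other end, among runs of 10% to 90%, Igh, the immunoglobulin heavy chain locus, had 27.9% ± 2.77, Xpnpep3, a mitochondrial aminopeptidase gene, 87.9% ± 2.85, and Astn2, a neuronal gene, 15.04% ± 2.97 (SD, n = 27 each). The run in Astn2 also overlaps the promoter window of another gene, Trim32, and lies before the start of Trim32. The libraries at Igh stayed between 21.1% and 32.7%.

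Runs at muscle genes had mixed levels. Of 24 myogenic regulators 3 had a run in or within 2000 bp of them. Myf5, a determination factor of the muscle lineage, had 49.6% ± 18.7 (SD, n = 27), from 0 to 78.4% (median 51.4%). Mustn1, a gene of muscle and skeleton, had 93.9% ± 3.53, and the run near Tcf21, a bHLH factor, 44.4% ± 6.90 (SD, n = 27 each). The run near Tcf21 lies inside the long noncoding RNA gene Gm10824. Of 45 genes of muscle structure 3 had one: Tnni2, fast troponin I, with 78.1% ± 8.51, Cav3, the caveolin of muscle, at a promoter window with 13.7% ± 5.25, and a run near Mybpc2, a myosin-binding protein, with 41.5% ± 6.28 (SD, n = 27 each). The gene nearest to the run near Mybpc2 was another one, Spib, at 311 bp. Musk, the receptor kinase of the neuromuscular junction, also at a promoter window, had 26.99% ± 9.11, and a run near the glutamate receptor gene Grin1 3.47% ± 1.81 (SD, n = 27 each); they were the 2 of 20 genes of ion channels and receptors.

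Runs at metabolic, cell cycle and clock genes came next in the lists. Of 30 glucose genes, a run 222 bp from Ldha, lactate dehydrogenase, had 85.7% ± 6.71, Pgam2, the muscle phosphoglycerate mutase, 77.6% ± 4.97, and Tbc1d1, a regulator of glucose transport, 29.7% ± 8.80 (SD, n = 27 each). Of 27 lipid and mitochondrial genes 1 had a run, Plin2, a lipid droplet coat protein, with 2.82% ± 2.57 (SD, n = 27). Of 27 cell cycle genes, Pcna, the sliding clamp of replication, had 2.92% ± 2.32 and Rb1, the retinoblastoma protein, 1.59% ± 2.09 (SD, n = 27 each). The run at Rb1 (chr14:73238037-73238117) also overlaps the gene Lpar6. Rb1 spans 73192858 to 73325951, so this run lies at neither end of Rb1. Of 25 core clock genes 1 had a run, at a promoter window near Tef, with 5.03% ± 3.798 (SD, n = 27). That run lies inside the long noncoding RNA gene Gm17597. No run lay at any of 29 immediate-early genes.

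Runs at germline genes lay between 49.5% and 90.9%. Stra8, a gene of meiosis, had 90.9% ± 5.12, Dppa3, a gene of oocytes and pluripotent cells, 69.0% ± 8.16, Dppa4 49.5% ± 10.4 and a run 86 bp from Dppa2 51.4% ± 7.67 (SD, n = 27 each); they were 4 of 35 germline genes. Of 41 imprinted genes, of which 40 are in the gene table, Peg3, expressed from the paternal allele, and its neighbour Usp29 shared a run with 46.6% ± 21.03, and Slc38a4, an amino acid transporter, had 64.6% ± 5.22 (SD, n = 27 each). The Peg3 run ranged from 4.09% to 94.3%, whereas the Slc38a4 run ranged from 54.4% to 76.7%. Hoxd11, of 60 developmental genes, had 39.7% ± 17.7 (SD, n = 27), from 0 to 75%. Of 16 genes of DNA methylation enzymes and related deaminases 1 had a run, 610 bp from Apobec2, with 73.6% ± 5.94 (SD, n = 27). Markers of other cells were also scattered: of 17 fibroblast and adipocyte genes, Thy1, a surface protein, had 91.2% ± 4.48, the run in S100a3, which lies near S100a4, 50.1% ± 5.79, the run near Cidec 39.1% ± 5.90 and Col1a2, a collagen gene, at a promoter window, 30.2% ± 12.4 (SD, n = 27 each). Of 21 immune and neural genes, the run near Itgam had 47.6% ± 6.57 and Adgre1, a macrophage receptor, 29.6% ± 5.90 (SD, n = 27 each). The gene nearest to the run near Itgam was Gm22809, at 1062 bp, and the run near Cidec lies inside the long noncoding RNA gene Gm52871. Over all 14 lists, 29 runs were tied to 30 of 417 genes, and none of them passed a test of time after adjustment.

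The study's time course asked whether levels follow time after the shock. The mean level over the 1070 runs lay between 39.2% ± 0.505 (54 h) and 39.8% ± 0.599 (48 h; SD, n = 3 each). That range of 0.629 points was smaller than the pooled SD between libraries of a time point, 0.656 points. The 12 h mean was 39.4% ± 0.996 and the 60 h mean 39.4% ± 0.372 (SD, n = 3 each).

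**Figure D4:**
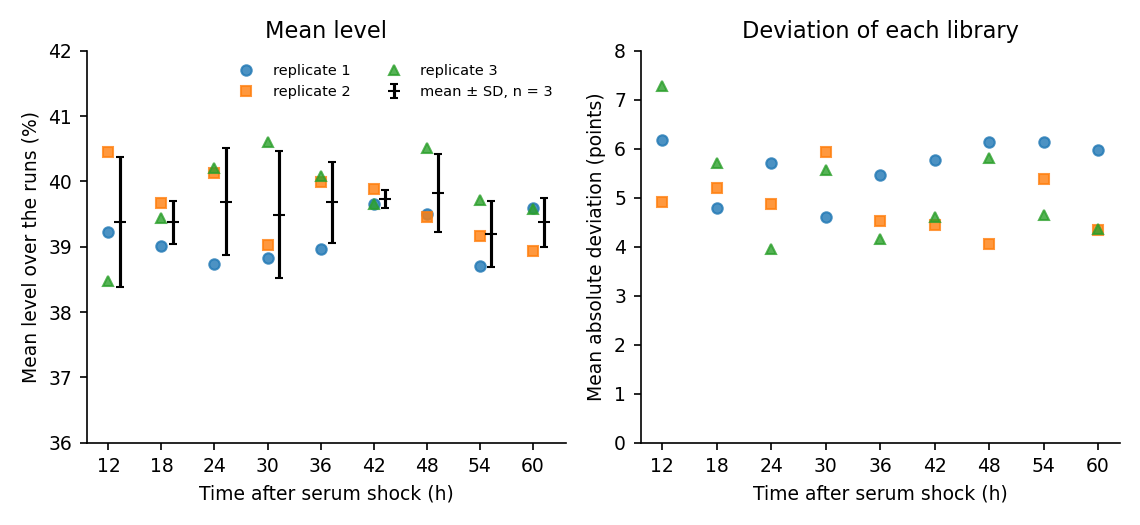
Left, mean level over the 1070 short isolated runs in each library (y axis, percent) by time after serum shock (x axis, h), with the mean ± SD of 3 libraries beside the points; the axis covers 36% to 42%. Right, mean absolute deviation of each library from the 27-library mean (y axis, percentage points); 12 h replicate 3 is highest with 7.29 points.

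Each run was tested with limma over all 23602 runs, with Benjamini-Hochberg adjustment over all of them and a threshold of 0.05. For a 24 h rhythm, 0 of the 1070 runs passed (0% of all runs passed), and the smallest adjusted p from limma was 0.981. At an unadjusted p under 0.05 there were 67 (6.26%), against 4.33% of all runs. For any difference between time points, 0 passed, while 1 other run did, which is 0.00424% of all runs, and the smallest adjusted p from limma among members was 0.525. Unadjusted, 61 (5.70%) were under 0.05, against 4.25% of all. For a linear trend, 0 passed (0% of all runs), with 49 (4.58%) at an unadjusted p under 0.05 against 4.97% of all, and for 60 h against 12 h 0 passed (0% of all runs), with 65 (6.07%) against 5.39%. The shares of members were thus within 2 points of the background in each test. The median amplitude of the fitted rhythm was 1.82 points, against 0.914 in the other autosomal runs, whose libraries vary less. An upper 95% limit on the amplitude lay under 5 points in 33.6% of the runs (70.0% of the others) and under 10 points in 80.9% (92.4%). Among runs with a level of 10% to 90% it lay under 5 points in 16.8% (35.1% of the others) and under 10 points in 74.0% (80.8%). The trend was upward in 542 runs, with a median of 0.0437 points per 48 h (all runs −0.0196), and 60 h was above 12 h in 557, with a median difference of 0.169 points (all runs −0.0428).

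The runs with the smallest p-values serve to show what the data look like, since none passed. In the rhythm test they were 1700010I14Rik, with an amplitude of 5.96 ± 1.403 points around 27.04%, Exph5, an effector of Rab27, with 7.28 ± 1.79 points around 16.9%, and Cyp4x1, a cytochrome P450 gene, with 4.31 ± 1.06 points around 5.18% (SE, n = 27 libraries each). The means at 1700010I14Rik were 33.9% ± 8.36 at 30 h and 18.4% ± 4.53 at 36 h (SD, n = 3 each). At Exph5 they were 11.1% ± 5.70 at 12 h, 23.7% ± 6.97 at 30 h, 24.4% ± 12.4 at 48 h and 9.74% ± 1.69 at 60 h (SD, n = 3 each), with a fitted peak 3.16 h after the shock and at every 24 h from there.

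In the test for any time difference they were AI606473, a long noncoding RNA gene, AI593442 and Irf9, a subunit of the interferon-stimulated transcription factor, with adjusted p of 0.525, 0.755 and 0.764 from limma. AI606473 had 71.9% ± 6.41 at 12 h, 86.3% ± 4.54 at 36 h, 72.1% ± 4.55 at 42 h and 89.02% ± 5.12 at 60 h (SD, n = 3 each). AI593442 stood at 1.44% ± 2.50 at 30 h and at 31.0% ± 9.31 at 48 h (SD, n = 3 each). Irf9, whose run overlaps a promoter window, was lowest at 36 h with 9.21% ± 3.09 and highest at 54 h with 18.9% ± 2.89 (SD, n = 3 each).

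In the trend test they were Rag1, the recombinase of antigen receptor genes, with a slope of 8.61 ± 2.13 points per 48 h, Rasa4, a GTPase-activating protein of Ras, with −8.30 ± 2.10, and Hif3a, a hypoxia-inducible factor, with 14.0 ± 3.81 (SE, n = 27 libraries each; adjusted p from limma 0.975 each). The Rag1 libraries had 31.7%, 28.5% and 22.1% at 12 h and 40.3%, 36.8% and 39.9% at 60 h. The Rasa4 libraries had 3.31%, 5.75% and 16.2% at 12 h, 6.91%, 11.6% and 12.5% at 24 h, and 0, 0 and 2.63% at 60 h. Without the 12 h replicate 3 library the slopes were 7.35 ± 2.13 at Rag1, −6.60 ± 1.95 at Rasa4 and 13.3 ± 4.06 at Hif3a (SE, n = 26 libraries each). Hif3a had a mean of 13.6% ± 7.17 at 12 h and 24.98% ± 6.37 at 60 h (SD, n = 3 each).

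The largest of the differences between 60 h and 12 h by p-value was at Spon2, an extracellular matrix gene (chr5:33217273-33217389), which was named after its values were seen. Its libraries had 41.3%, 39.1% and 7.27% at 12 h and 73.9%, 73.2% and 61.3% at 60 h, a difference of 40.2 ± 7.35 points (SE, n = 3 against 3; adjusted p from limma 0.195). Without the 12 h replicate 1 library, this run passed with 46.3 points and an adjusted p of 0.0398 from limma. Peg3 had 82.4%, 57.7% and 94.3% at 12 h and 29.98%, 37.7% and 30.2% at 60 h, a difference of −45.5 ± 15.1 points (SE, n = 3 against 3; adjusted p from limma 0.814). The 12 h group includes the library that stood apart, and without it the difference was 29.3 ± 6.22 points at Spon2 and −37.4 ± 16.8 points at Peg3 (SE, n = 2 against 3; adjusted p from limma 0.234 and 0.867).

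Leaving out 1 library also brought a pair of runs past the threshold in the test for any time difference, named here after their values were seen. Mrpl36, a mitochondrial ribosomal protein gene, passed without 18 h replicate 1, which was at 0 while the other 18 h libraries averaged 15.7% (adjusted p from limma 0.00999, against 0.988 with all libraries). Ston1 passed without 24 h replicate 2, which was at 0 while the other 24 h libraries averaged 23.4% (adjusted p from limma 0.0488, against 0.988 with all libraries). Over 27 libraries Mrpl36 had a level of 3.09% ± 3.90 and Ston1 of 3.96% ± 6.18 (SD, n = 27 each).

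**Figure D5:**
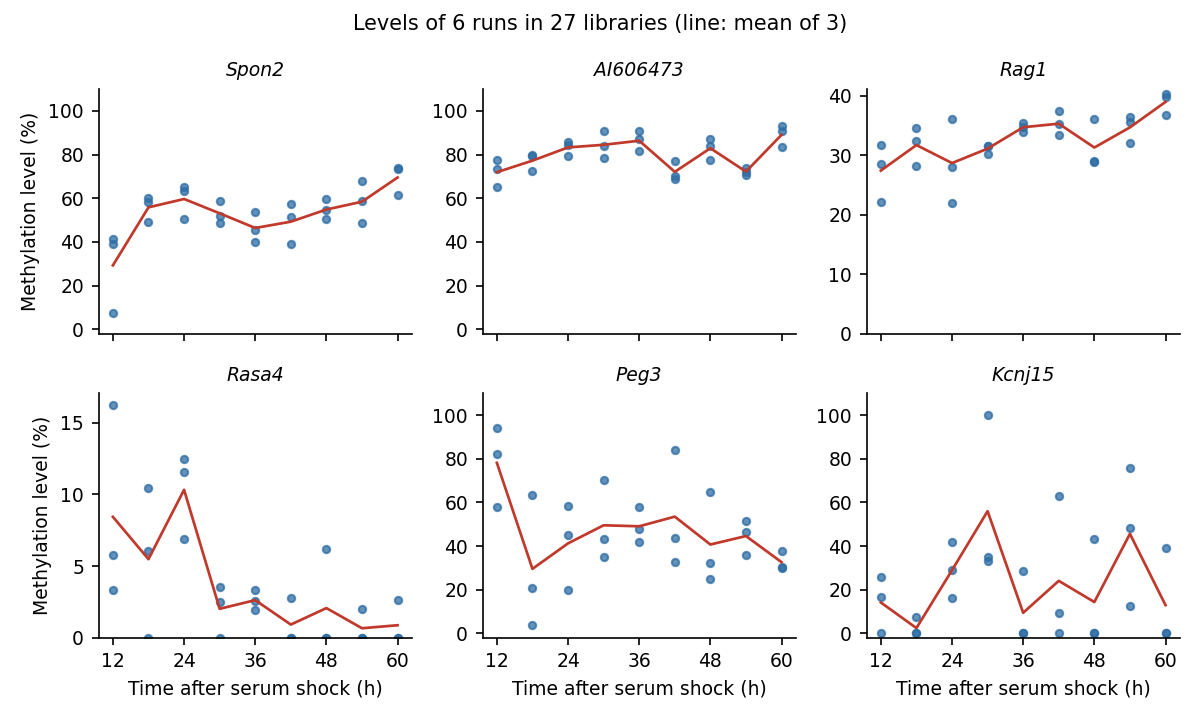
Methylation level (y axis, percent) of 6 short isolated runs against time after serum shock (x axis, h); points are libraries (n = 3 per time point) and the line joins their means. Spon2 and Rag1 lie higher at 60 h than at 12 h, Rasa4 and Peg3 lower, AI606473 lies lower at 42 h and 54 h than at 36 h and 48 h, and Kcnj15 spans 0 to 100%; none passed an adjusted threshold of 0.05 over all libraries.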

How the data were processed

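The authors deposited methylation levels in a single file, as a fraction from 0 to 1 per genomic position and library, per the file headers and values. Per the submitters' processing notes, the reads were handled with Bismark 0.14.4, Bowtie2, cutadapt 1.9.1 and Trim Galore 0.4.0 on build mm10. Their parameters are, in the sources used here, not given. It holds no read counts, so depth is unknown and no value was weighted by it. Coordinates count from 1: 1259 of 1260 positions in promoter windows then fall on a CpG.

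Of 937644 positions, the 871894 with values in all 27 libraries were joined into runs, averaged per library and multiplied to percent. Genes and promoter windows came from RefSeq (GRCm38.p6). Levels of all 23602 runs in 27 libraries were tested in R 4.3.3 by limma 3.58.1 (24 h cosine and sine, time as factor, linear time per 48 h, 60 h minus 12 h), two-sided, in code checked on simulated data. Descriptions used pandas 2.3.3 with numpy 2.4.6 and scipy 1.17.1 in Python 3.11.15, and matplotlib 3.10.9 drew the figures.

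The members and gene lists were chosen with earlier results of these data known. Named runs were the 3 highest, 3 lowest and 3 nearest 50%, the 4 with the largest and, at 10% to 90%, the 3 with the smallest SD, the 3 with the smallest p in the rhythm, time and trend tests, the 3 widest within the run, and those in or within 2000 bp of a list gene; 1 run named by this rule is not reported here. Sequences were limited to stretches before gene starts, outside all genes, for which a promoter window was at hand; this differs from the rule first laid down, which assumed a genome.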

Additional observations from a re-analysis of the deposited data

How the results depend on the processing

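No short isolated run passed a test of time under the other summaries, M-values (offset 0.01), covariates, prior settings, definitions or periods of 20 and 28 h that were tried. With 1 library left out the count of runs passing went from 0 to 0 for the rhythm and the trend, from 0 to 1 for any time difference (1 without 18 h replicate 1, 1 without 24 h replicate 2) and from 0 to 1 for 60 h minus 12 h (1 without 12 h replicate 1). With the replicate block 0 runs passed in each test. Replicate numbers were not taken as pairs, since the deviations of same-numbered libraries had a mean correlation of 0.00618 over 108 pairs, none over 0.1. As a hint from the data, 16 of 27 libraries correlated best with a library of their own number, where 9 would if numbers carried no information.

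The number and levels of the runs depend on the definition. With isolation of 1000 bp there were 1659 runs, with a median level of 44.8%, 19.6% under 10%, 10.6% at 90% or more and 78.1% inside a gene. With 5 to 7 positions there were 651, with 38.8%, 21.05%, 7.68% and 79.9%. Isolation of 5000 bp gave a median of 32.6% and 5.96% at 90% or more. Positions with a value in at least 24 libraries gave 37.2%, with 23.2% under 10% and 6.06% at 90% or more. The median over positions gave 33.03%, with 8.97% at 90% or more. Of the 1070 runs, 259 do not meet the rule once every listed position counts; the 811 that do, an alternative chosen after seeing the data, gave 36.1%, with 23.3% under 10% and 5.92% at 90% or more. Leaving out 1 library moved the median level between 34.5% and 35.0%, the share under 10% between 25.1% and 25.5%, the share at 90% or more between 6.64% and 6.92%, and the median SD between 5.89 and 6.11 points. The cause of these shifts was not tested. Depth is unknown, so levels of 0 or 100% in a library cannot be told apart from few reads.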

Other observations

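On the X chromosome, outside the set described above, 58 runs met the same limits of 5 to 10 positions and 2000 bp. They had a median level of 33.5% (quartiles 18.1% and 44.4%), 13.8% of them lay under 10%, and 0 lay at 90% or more. The median SD over the 27 libraries was 7.75 points, and 87.9% of these runs lay inside a gene.

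Chromosomes differed in the median level of their short isolated runs, from 20.6% on chromosome 5 (62 runs) to 50.6% on chromosome 18 (25 runs). Chromosome 7 held the largest number, 105, of which 0.952% lay at 90% or more, and on chromosome 14 12.5% of 40 runs did. These shares rest on few runs each and were not tested.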
